A study of Mus musculus with 8 samples.

Results

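The B-class ephrins and the EphB receptors are 8 genes of the 54532 in the expression table, 3 ligands (Efnb1, Efnb2 and Efnb3) and 5 receptors (Ephb1, Ephb2, Ephb3, Ephb4 and Ephb6). They were taken by family name, with each Ensembl identifier matched to its symbol in the mouse annotation, and all 8 were found. The samples were mouse cardiac fibroblasts, the collagen-making stromal cells of the heart, harvested on day 7. Vector cells in complete medium, vector cells put through osteogenic differentiation, EphrinB2-overexpressing cells in complete medium and EphrinB2-overexpressing cells put through osteogenic differentiation gave 2 libraries each. Every group therefore carries either the vector or the overexpressed ligand, and no group of unmodified cells was analysed here. The sources used here do not give the vector, its promoter, the form of EphrinB2 it carries, the composition of the osteogenic medium, or the strain, age and number of the mice. Whether the 2 libraries of a group represent separate cultures is not stated either, and p-values then measure only the spread between libraries, which may be technical.

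Ephrins and Eph receptors are a contact-dependent signalling system, since both partners sit in the plasma membrane and meet where cells touch. EphB receptors are tyrosine kinases that signal forward into the cell that carries them, and B-class ephrins, which span the membrane, signal in reverse through phosphotyrosine and PDZ-binding sites on their own tails. In the cardiovascular system EphrinB2 and its receptor EphB4 are best known as the arterial and venous partners of developing vessels, and in bone the same pair is known from contacts between osteoclasts and osteoblasts. Efnb2 is the gene that was overexpressed here, so its level can be set beside the labels.

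Levels are in FPKM, a read count divided by the length of a gene's merged exons and by the library's depth. The unit compares genes within a library per base of merged exon. It can understate a gene whose transcripts are much shorter than its merged exons. The steps between low values gave between 16493965 and 20550772 counted reads per library, and at this depth all 64 values of the 8 genes came out as whole reads. Of the 4 EphrinB2 libraries, 2 stood apart. Over the 12994 genes with at least 1 FPKM in at least 2 libraries, the log2 difference from the vector libraries of the same medium had an SD of 0.42 in EphrinB2 complete replicate 2 and 0.69 in EphrinB2 osteogenic replicate 1, against 0.23 to 0.26 in every other library. An EphrinB2 library was set against the mean of 2 vector libraries, but a vector library against its 1 partner only. The bases of these SDs thus differ. Replicate 1 of the osteogenic EphrinB2 group also had a summed FPKM of 360626, where the other 7 libraries had 253613 to 269809. Values without these 2 libraries are given below for many of the differences in EphrinB2 cells.

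Of the labelled cell type, all 12 fibroblast markers were present, with summed levels of 5246 to 7607 FPKM across libraries, Gsn and Col3a1 being the most abundant. Macrophage markers were present as well, led by Lyz2 and C1qa. All 15 of them had a mean of at least 1 FPKM in both osteogenic groups, and 14, all but Cd163, in both complete-medium groups. Their sum was 903 to 2172 FPKM in complete medium and 4211 to 8458 FPKM in osteogenic medium, so it was higher in osteogenic medium in every library. Of 14 endothelial markers 7 stayed under 1 FPKM in all libraries, and the sum of the list was 10.02 to 17.3 FPKM, of which Tek and Cdh5 made up the most. In bulk RNA, fewer cells of a type and less RNA per cell cannot be told apart, and the part of these other cells in the results below was not tested.

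**Figure D1:**
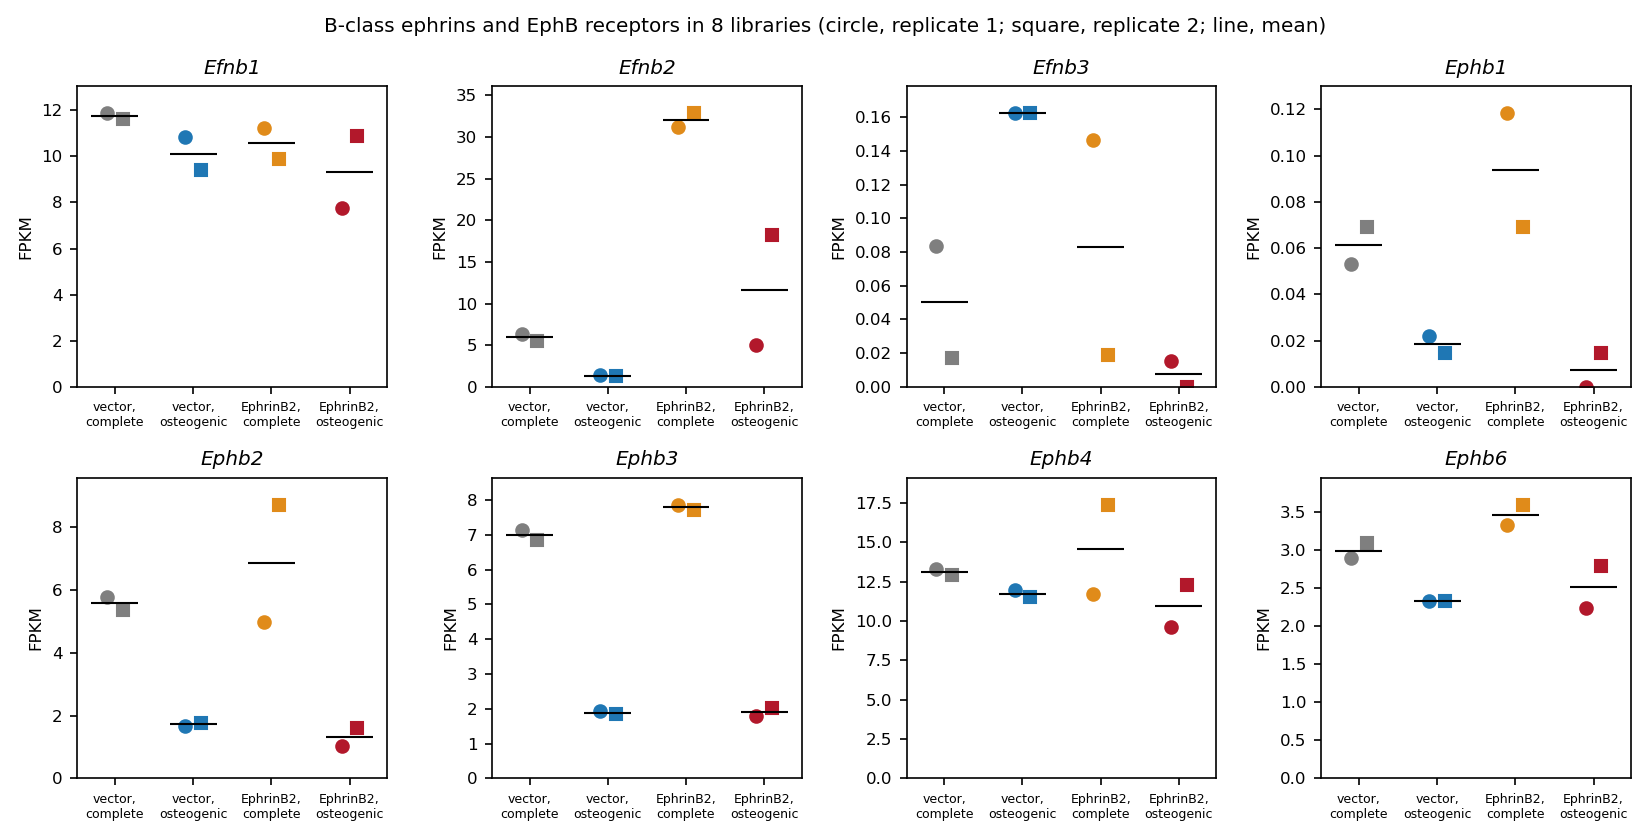
FPKM of each B-class ephrin and EphB receptor (linear axes from 0, with a separate scale for each gene) in the 4 groups; circles are replicate 1, squares replicate 2 and lines group means. Efnb2 reaches 32.8 FPKM in EphrinB2 cells in complete medium, and Ephb2 and Ephb3 sit under 2.1 FPKM in all 4 osteogenic libraries.

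Among the ligands, Efnb2, the transmembrane ephrin that was overexpressed, was high in EphrinB2 libraries and low in osteogenic ones. Vector cells had 6.30 and 5.56 FPKM in complete medium, and after osteogenic differentiation they had 1.39 and 1.27 FPKM. EphrinB2 cells had 31.3 and 32.8 FPKM in complete medium, but only 5.02 (replicate 1) and 18.3 FPKM (replicate 2) after osteogenic differentiation. Within each medium both EphrinB2 libraries lay above both vector libraries, which is the order of the labels. The same order was met by 14.3% of all tested genes in complete and 25.6% in osteogenic medium, so by itself it does not establish the labels. Osteogenic replicate 1 nevertheless stayed below both vector libraries grown in complete medium.

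The ratio of group means was 5.41-fold in complete medium and 8.76-fold in osteogenic medium. On the log2(FPKM + 1) scale used for every test the differences were 2.26 (SE 0.48, 95% interval 1.12 to 3.39) and 2.21 (SE 0.48, 1.07 to 3.35). Neither passed after Benjamini-Hochberg adjustment over all genes in limma (adjusted p = 1 and 0.567), although the unadjusted p-values were 0.00238 and 0.00266. The fit takes 1 spread per gene from all 8 libraries, and the 2 osteogenic EphrinB2 libraries of Efnb2 differ 3.64-fold. Without the 2 libraries that stood apart the differences were 2.22 (adjusted p = 0.0430 in limma) and 3.05 (adjusted p = 0.0193 in limma), each then resting on 1 EphrinB2 library assumed to vary like the other groups. Without EphrinB2 osteogenic replicate 2 the osteogenic difference was 1.37, and without replicate 1 it was 3.05.

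Efnb2 lies on chromosome 8 (chr8:8617434-8661242, minus strand, mm10), and its merged exons cover 6855 bases, of which the coding sequence of its main transcript takes 14.7%. FPKM divides the reads by the whole 6855 bases. If the overexpressed transcript carries the coding sequence alone, which the sources used here do not say, its level per base is understated by this unit. Reads of the resident gene and of the introduced copy were not separated.

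Efnb2 had lower values in osteogenic medium in both kinds of cell, in neither of which the difference passed the test. In vector cells the osteogenic libraries were lower by 4.46-fold in group means, a log2 difference of -1.57 (95% interval -2.71 to -0.43, adjusted p = 0.116 in limma). In EphrinB2 cells they were lower by 2.75-fold, a log2 difference of -1.62 (-2.75 to -0.48, adjusted p = 0.0764 in limma). With the 4 vector libraries fitted alone the vector value passed (adjusted p = 0.000596 in limma). The test of whether the medium effect differed between EphrinB2 and vector cells gave -0.05 (95% interval -1.66 to 1.56, adjusted p = 0.980 in limma), an interval wide enough to hold a change of either sign.

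Efnb1, the other transmembrane ephrin these cells express, was steady by comparison. Vector cells had 11.9 and 11.6 FPKM in complete and 10.9 and 9.40 FPKM in osteogenic medium. EphrinB2 cells had 11.2 and 9.91 FPKM in complete and 7.74 and 10.9 FPKM in osteogenic medium. The lowest of the 8 values belongs to the library with the outlying FPKM sum. None of its 4 differences between groups passed the test, the log2 values lying between -0.20 and -0.12, and their 95% intervals reached from -0.65 to 0.33.

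Efnb3, the ephrin best known from the nervous system, was at the edge of detection. Vector libraries held 5 and 1 reads under complete and 10 and 10 under osteogenic conditions, and EphrinB2 libraries held 9 and 1 under complete and 1 and 0 under osteogenic conditions. All are under 0.17 FPKM. The library without a read allows up to 3 reads, or 0.0489 FPKM, by counting error alone, so Efnb3 did not enter the tests and no fold is given.

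The make-up of the ligand pool differed between the groups. Efnb1 supplied 65.0% and 67.6% of the summed ligand FPKM in the complete-medium vector libraries and 87.5% and 86.8% in the osteogenic ones. In EphrinB2 cells Efnb2 supplied 73.3% and 76.8% in complete medium. In osteogenic medium it supplied 39.3% in replicate 1 and 62.6% in replicate 2. Efnb1 was thus the leading ligand in every vector library and in 1 of the 4 EphrinB2 libraries.

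Of the 4 receptors that were expressed, Ephb2 and Ephb3 fell in osteogenic medium, while the differences of Ephb4 and Ephb6 did not pass the test. The split was also one of size. In vector cells the log2 differences were -1.28 for Ephb2 and -1.47 for Ephb3, against -0.15 for Ephb4 and -0.26 for Ephb6. In EphrinB2 cells they were -1.73 and -1.60, against -0.37 and -0.35. The limma intervals of Ephb2 and Ephb3 did not meet those of Ephb4 and Ephb6 in either kind of cell. Pearson's r does not take in the size of a change. By r of log2(FPKM + 1), Ephb6 was more like Ephb2 and Ephb3 (r = 0.903 and 0.893) than Ephb4 (r = 0.763). All 4 lie on different chromosomes, Ephb2 at chr4:136647539-136835988 (minus strand), Ephb3 at chr16:21204755-21223305 (plus strand), Ephb4 at chr5:137350109-137378669 (plus strand) and Ephb6 at chr6:41605482-41620509 (plus strand), all in mm10. Because they are paralogs, shared sequence could let reads of 1 receptor count for another, and the most alike stretch of Ephb2 and Ephb3 is shown here to judge this. It is a 30-base in-frame window of the kinase domain, with capitals marking bases unlike Ephb2, set beside the closest in-frame window of the other receptors between 70% and 80% into their coding sequences (GENCODE M21 transcripts on GRCm38, sense strand).
Ephb2: atgaactacgtgcaccgtgaccttgctgct
Ephb3: atgaactacgtgcaccgtgaccttgctgcC
Ephb1: atgaaTtaTgtgcaccgGgacctGgctgct
Ephb4: atgaGctaTgtCcaccgAgacctGgctgct
Ephb6: CtgGTGGCcAtgcaGcgGgGTGtGgctgct
Ephb3 differs from Ephb2 at 1 base of this window, Ephb1 at 4, Ephb4 at 5 and Ephb6 at 13. Windows were picked by the fewest unlike bases, without an alignment. That of Ephb6 resembles the stretch of Ephb2 from coding base 2170 more than the window printed. Its 13 therefore does not compare the same site. The window covers bases 2221 to 2250 of the coding sequence in the main transcript of Ephb2 and bases 2239 to 2268 in that of Ephb3. The longest run shared by the coding sequences of Ephb2 and Ephb3 was 29 bases, and over all pairs of the 8 genes the longest in coding sequence was 38 bases, between Ephb1 and Ephb3. A read longer than such a run can be told apart, but the sources used here state neither the read length nor how reads with several matches were handled.

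Ephb2, which binds all B-class ephrins and is known for cell sorting and axon guidance, fell with osteogenic differentiation. Complete medium gave 5.79 and 5.37 FPKM in vector cells, against 1.66 and 1.77 FPKM in osteogenic medium. Complete medium gave 4.99 and 8.72 FPKM in EphrinB2 cells, against 1.02 and 1.61 FPKM in osteogenic medium. The osteogenic libraries lay below the complete-medium libraries throughout, with no overlap. Ephb2 fell by 1.28 on the log2 scale in vector cells (SE 0.25, adjusted p = 0.0271 in limma) and by 1.73 in EphrinB2 cells (SE 0.25, adjusted p = 0.00751 in limma), or 3.25-fold and 5.22-fold in group means. The spread in EphrinB2 cells in complete medium came from replicate 2, and without both libraries that stood apart the difference there was -1.20 (adjusted p = 0.00306 in limma). In vector cells the call was lost when any 1 vector library was left out (adjusted p = 0.162 to 0.194 in limma), with values of -1.32 to -1.23.

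Ephb3, known together with Ephb2 for positioning cells in the intestinal crypt, had the smallest SE of the 6 tested genes. Vector cells gave 7.14 and 6.85 FPKM in complete and 1.92 and 1.84 in osteogenic medium. EphrinB2 cells gave 7.86 and 7.72 FPKM in complete and 1.79 and 2.01 in osteogenic medium. No library of 1 medium came near those of the other, and the libraries that stood apart lay with the rest. Ephb3 fell by 1.47 on the log2 scale in vector cells (SE 0.12, adjusted p = 0.00124 in limma) and by 1.60 in EphrinB2 cells (SE 0.12, adjusted p = 0.000893 in limma), or 3.72-fold and 4.10-fold in group means. It passed in vector cells in all 21 fits run, and in EphrinB2 cells in 20 of 21, the exception being a fit of the 4 EphrinB2 libraries alone (adjusted p = 0.0525 in limma), where Ephb2 was also lost (adjusted p = 0.0847 in limma).

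Ephb4, the classical partner of EphrinB2, had the highest FPKM of the receptors in all 8 libraries. FPKM divides by merged exons, 12608 bases for Ephb2 and 4640 for Ephb4, while their main transcripts have 4804 and 4296. In complete medium Ephb2 held more summed reads than Ephb4, 2627 against 2270 in vector and 3029 against 2381 in EphrinB2 cells. Osteogenic libraries held more of Ephb4, 2108 against 838 and 2013 against 655. In vector cells the levels of Ephb4 were 13.3 and 12.9 FPKM under complete and 12.0 and 11.5 FPKM under osteogenic conditions. The EphrinB2 libraries had 11.7 and 17.4 FPKM under complete and 9.60 and 12.3 FPKM under osteogenic conditions. The highest and the lowest value belong to the 2 libraries that stood apart. Its medium differences were -0.15 in vector cells (95% interval -0.65 to 0.36) and -0.37 in EphrinB2 cells (-0.88 to 0.14), and neither passed. Without those 2 libraries the second became 0.06, so its direction is not settled. Of its exons 33 bases overlap those of Zan on the opposite strand, of 4640 in all, and whether counting used strand is not stated.

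Ephb6, a receptor without kinase activity, had 2.90 and 3.09 FPKM in the complete-medium vector libraries and 2.33 FPKM in both osteogenic ones. EphrinB2 cells had 3.34 and 3.60 FPKM in complete and 2.24 and 2.79 in osteogenic medium. Osteogenic libraries were lower in both kinds of cell without overlap, but the differences of -0.26 and -0.35 did not pass (adjusted p = 0.383 and 0.147 in limma). Fitting the 4 vector libraries alone brought the first under the threshold (adjusted p = 0.0398 in limma).

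Ephb1, a receptor mainly studied in the nervous system, held 16 reads in the vector and 24 in the EphrinB2 libraries of complete medium, each summed over 2 libraries, and 5 and 2 in osteogenic medium. The exact Poisson intervals, which cover counting error only, are 9.15 to 26.0, 15.4 to 35.7, 1.62 to 11.7 and 0.242 to 7.22 reads. Every library was under 0.12 FPKM and Ephb1 was not tested. It also shares 152 exon bases with the lincRNA Gm26846 on the opposite strand.

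**Figure D2:**
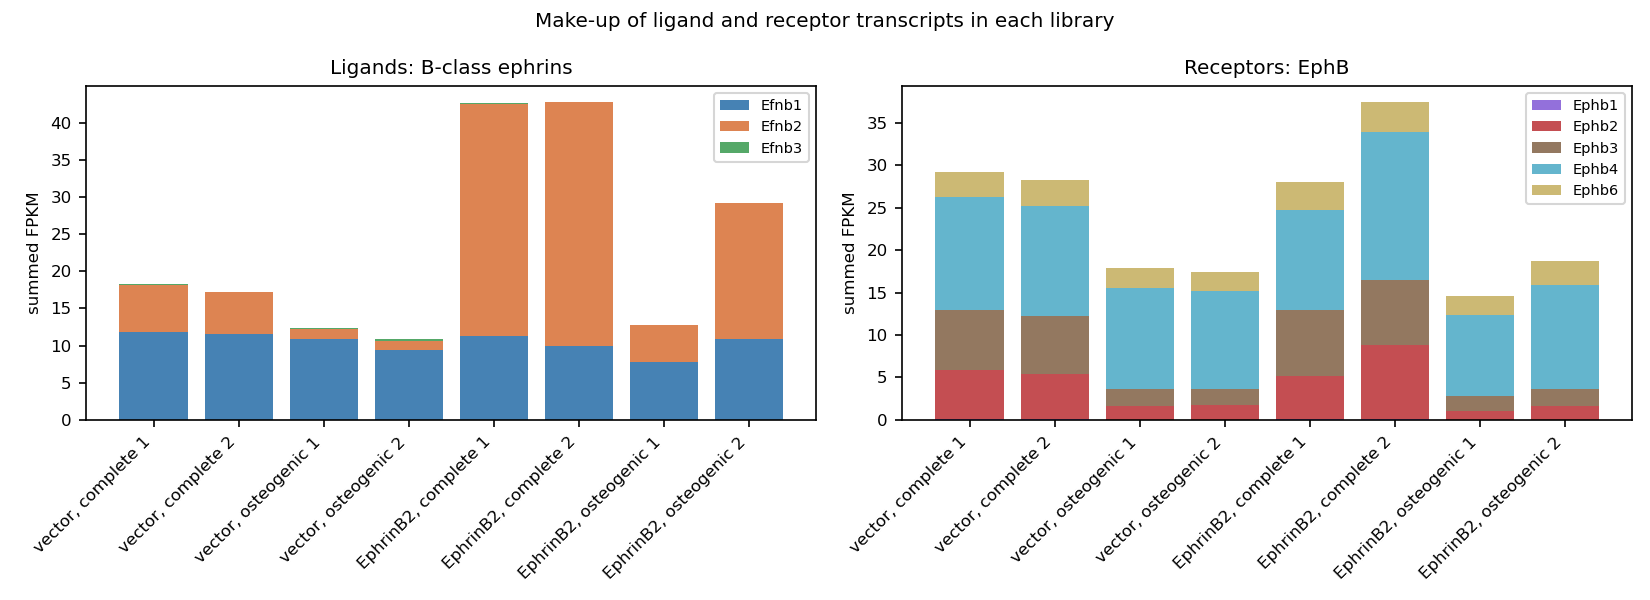
Summed FPKM of the 3 ligands (left) and the 5 receptors (right) in each of the 8 libraries, stacked by gene on axes that start at 0. Ligand sums are highest in EphrinB2 cells in complete medium (42.6 and 42.8 FPKM), and receptor sums are lowest in the 4 osteogenic libraries (14.6 to 18.7 FPKM).

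With Ephb2 and Ephb3 reduced, Ephb4 supplied most of the summed receptor FPKM in osteogenic cultures. These shares rest on the merged exon lengths, which weigh Ephb2 down most. The summed receptor level was 28.0 to 37.5 FPKM in the 4 complete-medium libraries and 14.6 to 18.7 FPKM in the 4 osteogenic ones. Ephb4 made up 41.8% to 46.4% of the sum in complete medium and 65.5% to 66.8% in osteogenic medium. The 2 ranges do not meet, and they hold vector and EphrinB2 libraries alike. As a ratio within a library, Efnb2 over Ephb4 stood at 0.474 and 0.431 under complete and at 0.117 and 0.110 under osteogenic conditions in vector cells. The EphrinB2 libraries gave 2.67 and 1.89 under complete and 0.523 and 1.49 under osteogenic conditions. EphrinB2 osteogenic replicate 1 thus came close to vector cells in complete medium in this ratio too.

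The order of the 8 genes by group mean FPKM, which depends on the merged exon lengths, also changed with the medium. In vector cells in complete medium it ran Ephb4, Efnb1, Ephb3, Efnb2, Ephb2, Ephb6, Ephb1 and Efnb3, with overlapping libraries for Efnb2 and Ephb2 and for Ephb1 and Efnb3. In vector cells in osteogenic medium Ephb4 and Efnb1 still led, but Ephb6 moved ahead of Ephb3, Ephb2 and Efnb2, and no neighbours overlapped. In EphrinB2 cells in complete medium Efnb2 came first, clear of Ephb4, while Ephb3 and Ephb2 overlapped. In EphrinB2 cells in osteogenic medium the first 3, Efnb2, Ephb4 and Efnb1, could not be ordered beyond their spread.

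Counted over the family, 6 of the 8 genes passed the filter and were tested, all of them in every library at 1 FPKM or more. In vector cells 2 of the 6 fell in osteogenic medium, against 7.52% of all tested genes called in either direction and 3.11% called lower. The same 2 genes, Ephb2 and Ephb3, fell in EphrinB2 cells, where 11.8% of all tested genes were called and 5.44% called lower. The median log2 difference of the 4 tested receptors was -0.77 in vector cells and -0.98 in EphrinB2 cells, beside -0.02 and 0.03 over all tested genes. In vector cells all 6 genes were lower in both osteogenic libraries, in a comparison where 38.8% of all tested genes were, and in EphrinB2 cells 4 of 6 were, against 23.6%.

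With the 4 vector libraries fitted alone, 4 of 6 fell (Efnb2, Ephb2, Ephb3 and Ephb6), but so did 22.1% of all tested genes, and 40.6% were called in either direction. With the 4 EphrinB2 libraries alone none of the 6 was called, against 1.18% of all tested genes. Without the 2 libraries that stood apart, 4 of 6 were called in vector cells and 3 of 6 in EphrinB2 cells, where 40.6% and 29.7% of all tested genes were. With array weights per group 4 of 6 and 2 of 6 were called, beside 42.5% and 2.58% of all tested genes. With values centred by gene length 2 of 6 were called in each, beside 12% and 17.5%. Scaling each library to the same sum (TPM), which moves the median of all genes by -0.18 in EphrinB2 cells, kept Ephb2 and Ephb3 below the median of all genes in both kinds of cell, although Ephb2 then missed the threshold in vector cells (adjusted p = 0.0595 in limma). Under that scaling 5.89% and 9% of all tested genes were called.

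**Figure D3:**
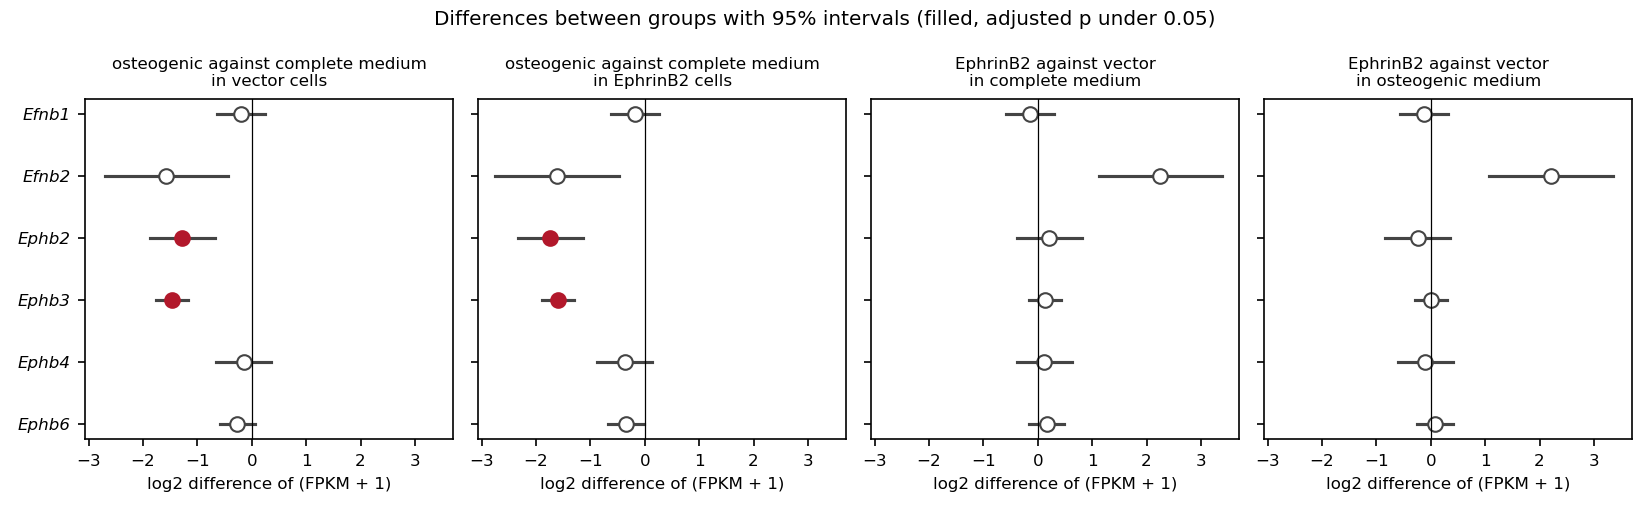
Log2 difference of (FPKM + 1) with 95% limma intervals for the 6 tested genes in the 4 comparisons; filled points have an adjusted p under 0.05. Ephb2 and Ephb3 are filled in both medium comparisons, and no gene is filled in the EphrinB2 comparisons, where Efnb2 lies at 2.26 and 2.21.

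Between EphrinB2 and vector cells in the same medium, no gene of the family passed the test. In complete medium limma called 0 of 6, with 1 of 6 (Efnb2) at an unadjusted p under 0.05, and it called 0.0077% of all tested genes. In osteogenic medium it again called 0 of 6, with Efnb2 alone at an unadjusted p under 0.05, and 0% of all tested genes. Without the 2 libraries that stood apart Efnb2 was called in both media, where 0.0154% of all tested genes were called in complete and 0.0077% in osteogenic medium. The receptors and Efnb1 differed by -0.14 to 0.22 on the log2 scale in complete medium and by -0.24 to 0.08 in osteogenic medium.

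The intervals say how large a receptor response could have been missed. For Ephb4, the receptor highest in FPKM, they were -0.39 to 0.63 in complete and -0.61 to 0.41 in osteogenic medium. For Ephb3 they were -0.16 to 0.43 and -0.29 to 0.30, and for Ephb2 -0.38 to 0.81 and -0.83 to 0.35. Both EphrinB2 libraries in complete medium were above both vector libraries for Ephb3 and Ephb6, as were 14.3% of all tested genes, and both were below them for Efnb1, as were 11.5%. In osteogenic medium these 3 genes overlapped, while both EphrinB2 libraries were below both vector libraries for Ephb2, as were 22.3% of all tested genes. None of the 6 genes passed the test of a different medium effect in the 2 kinds of cell, at 0 of 6 also for an unadjusted p under 0.05 in limma, and 0% of all tested genes passed it. The largest such difference was that of Ephb2, -0.46 (95% interval -1.30 to 0.38).

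Because Ephb2 and Ephb3 fell together, their promoters are printed beside that of Efnb2, which was lower in the same libraries. Those of Ephb2 and Efnb2 run to the RefSeq start (GRCm38.p6), and that of Ephb3 stops before it, at the first annotated exon. All are 5′ to 3′ on the gene's strand, with CpG dinucleotides in capitals.
Ephb2, chr4:136836013-136836262, minus strand: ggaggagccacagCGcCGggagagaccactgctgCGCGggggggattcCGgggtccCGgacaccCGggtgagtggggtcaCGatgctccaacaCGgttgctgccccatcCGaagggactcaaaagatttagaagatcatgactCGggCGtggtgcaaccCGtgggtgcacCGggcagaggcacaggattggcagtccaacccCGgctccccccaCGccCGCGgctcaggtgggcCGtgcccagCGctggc
Ephb3, chr16:21204545-21204754, plus strand: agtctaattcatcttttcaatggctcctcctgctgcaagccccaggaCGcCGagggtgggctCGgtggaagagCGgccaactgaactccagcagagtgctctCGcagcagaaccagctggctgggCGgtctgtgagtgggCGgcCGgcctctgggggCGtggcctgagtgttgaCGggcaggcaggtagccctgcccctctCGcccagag
Efnb2, chr8:8661243-8661492, minus strand: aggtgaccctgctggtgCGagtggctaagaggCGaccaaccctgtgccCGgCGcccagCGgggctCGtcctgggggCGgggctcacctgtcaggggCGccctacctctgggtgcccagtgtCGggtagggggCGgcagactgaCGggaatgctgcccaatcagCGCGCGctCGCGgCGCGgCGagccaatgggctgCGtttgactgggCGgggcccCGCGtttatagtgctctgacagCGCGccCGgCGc
The window of Ephb3 was shortened to 210 bases, and that of Ephb6 to 221, to leave out annotated exon, while the shares of all promoters below are for 250 bases. Ephb2 holds 20 CpG, Ephb3 11 and Efnb2 27, where the median of 32851 promoters of 250 bases is 6, and their GC contents were 68.4%, 65.2% and 72.0% against a median of 52.4%. Cores of 6 letters were searched on both strands. The windows of these 3 genes, and those of Ephb1, Ephb4 and Ephb6, hold neither CTTTGA nor CTTTGT (TCF/LEF), nor TGGGAA (RBPJ), nor TGTTCT (a glucocorticoid receptor core), which occur in 13.8%, 16.5%, 21.6% and 16.1% of all promoters. Only Efnb1 had a match among the 7 promoters searched, 2 copies of TGGGAA. A match of this kind is a description of letters, and no binding was measured.

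The partners of the family were followed through 4 lists with 78 genes in all, of which 62 were tested. In vector cells 7 of the 62 changed with osteogenic medium, 4 lower and 3 higher, where 7.52% of all tested genes were called. In EphrinB2 cells 13 changed, 10 lower and 3 higher, where 11.8% of all tested genes were called. None was called between EphrinB2 and vector cells by limma in either medium, with 1 and 4 of 62 at an unadjusted p under 0.05. The counts in medium moved widely with the libraries fitted, to 39 with the 4 vector libraries alone and to 0 with the 4 EphrinB2 libraries alone, and without the 2 libraries that stood apart they were 39 and 29. The shares of all tested genes called in those fits were 40.6%, 1.18%, 40.6% and 29.7%. The 13 partners called in EphrinB2 cells were also called, in the same direction, without the 2 libraries that stood apart (adjusted p = 0.000728 to 0.0270 in limma), but none of them was called with the 4 EphrinB2 libraries alone.

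Of the A-class ephrins and EphA receptors, the other branch of the system, 8 of 14 were tested. Epha7, a receptor of A-class ephrins, fell by 1.05 on the log2 scale in vector cells, from 2.54 ± 0.0328 to 0.711 ± 0.0295 FPKM (SD, n = 2), and by 1.27 in EphrinB2 cells. In EphrinB2 cells Epha3 fell too, by 1.06, as did Efna5, the most abundant A-class ligand, by 1.44, from 14.5 ± 4.38 to 4.68 ± 1.20 FPKM (SD, n = 2). Both were also lower in osteogenic vector cells without passing. There Epha3 went from 1.49 ± 0.0445 to 0.511 ± 0.00834 and Efna5 from 11.2 ± 0.0357 to 6.04 ± 0.334 FPKM (SD, n = 2). Without the 2 libraries that stood apart the differences in EphrinB2 cells were -0.96 for Epha7, -0.71 for Epha3 and -0.93 for Efna5. The median of the 8 was -0.53 in vector and -0.43 in EphrinB2 cells. The 1 of 8 and 3 of 8 A-class genes that fell stand beside 3.11% and 5.44% of all tested genes called lower, and 0 of 8 were called with the 4 EphrinB2 libraries alone. With the 4 vector libraries alone 5 of 8 fell, as did 22.1% of all tested genes.

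**Figure D4:**
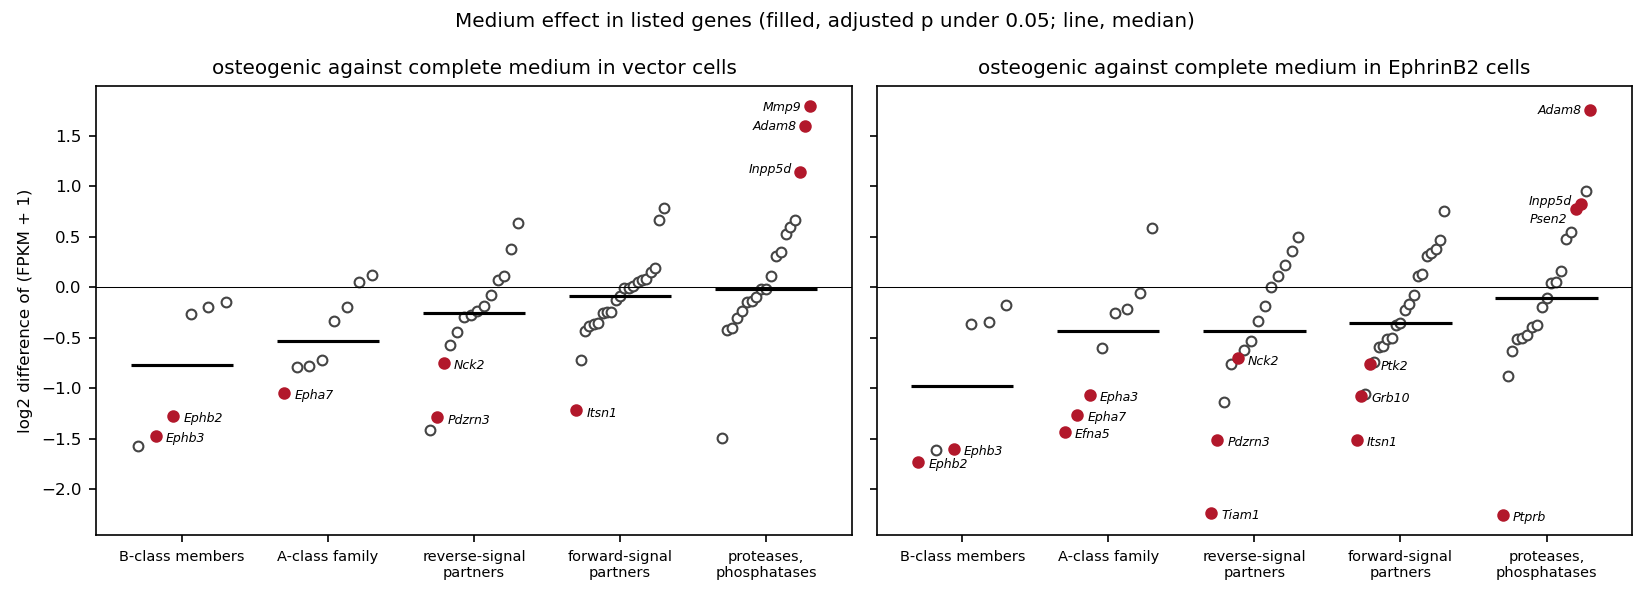
Log2 difference of (FPKM + 1) between osteogenic and complete medium for the tested genes of the family and of 4 partner lists, in vector (left) and EphrinB2 cells (right); filled points have an adjusted p under 0.05 and lines are list medians. Called genes lie below 0 except for Adam8, Inpp5d, Mmp9 and Psen2 among the proteases and phosphatases.

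Of the partners that carry the reverse signal from B-class ephrins, 14 of 18 were tested, and the median was -0.25 in vector and -0.43 in EphrinB2 cells. Pdzrn3, a PDZ-domain ubiquitin ligase, fell by 1.29 and by 1.51 on the log2 scale. Nck2, the adaptor known as Grb4 that binds phosphorylated ephrin tails, fell by 0.75 and by 0.70. Tiam1, a Rac activator, fell by 2.24 in EphrinB2 cells, from 26.0 ± 11.9 to 5.01 ± 3.61 FPKM (SD, n = 2), and in vector cells it went from 23.7 ± 0.201 to 8.26 ± 0.245 FPKM (SD, n = 2) without passing. Leaving out the libraries that stood apart gave differences in EphrinB2 cells of -1.12 for Tiam1, -1.11 for Pdzrn3 and -0.82 for Nck2.

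Of the partners that carry the forward signal from EphB receptors, 21 of 25 were tested. Itsn1, the Cdc42 activator that works with EphB2, fell by 1.22 in vector and by 1.51 in EphrinB2 cells, from 21.7 ± 0.424 to 8.75 ± 0.0245 FPKM in the former (SD, n = 2). Grb10, an adaptor, and Ptk2, the focal adhesion kinase, fell in EphrinB2 cells by 1.08 and by 0.76. Their vector means were also lower in osteogenic medium without passing, from 20.6 to 12.1 and from 7.29 to 5.34 FPKM. In EphrinB2 cells without the libraries that stood apart, the differences were -1.21 for Itsn1, -0.82 for Grb10 and -0.54 for Ptk2. The medians of the list were -0.09 and -0.36.

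Proteases that shed these proteins and phosphatases that switch them off were the list with members that rose when all 8 libraries were fitted. These were 3 of 19 tested in each kind of cell. Of all tested genes 7.52% were called in vector cells, 58.6% of them higher, and 11.8% in EphrinB2 cells, 53.9% of them higher. With the 4 EphrinB2 libraries alone 0 of 19 rose. With the 4 vector libraries alone 8 of 19 rose, as did 2 of 14 reverse and 3 of 21 forward partners, where 40.6% of all tested genes were called. Adam8, a membrane protease of leukocytes, rose by 1.60 in vector cells, from 15.7 ± 0.375 to 49.6 ± 1.40 FPKM (SD, n = 2), and by 1.76 in EphrinB2 cells. Inpp5d, the lipid phosphatase SHIP1 of blood cells, rose by 1.15 and by 0.83. Mmp9, a gelatinase, rose by 1.79 in vector cells, and Psen2, a gamma-secretase subunit, by 0.78 in EphrinB2 cells. Without passing, mean Mmp9 went from 0.271 to 0.927 FPKM in EphrinB2 cells and mean Psen2 from 6.75 to 10.2 FPKM in vector cells. Ptprb, a receptor phosphatase of endothelium, fell by 2.25 in EphrinB2 cells, from 12.6 ± 5.37 to 1.88 ± 1.29 FPKM (SD, n = 2). Its vector values went from 9.69 ± 0.662 to 2.80 ± 0.337 FPKM (SD, n = 2) without passing. Without the 2 libraries that stood apart the differences in EphrinB2 cells were -1.37 for Ptprb, 1.80 for Adam8, 1.22 for Inpp5d and 0.54 for Psen2.

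Markers of other cell types moved with the medium as well, where 7.52% of all tested genes were called in vector and 11.8% in EphrinB2 cells. Of 15 macrophage markers 7 rose in vector cells, and 12 rose and 1 fell in EphrinB2 cells. With the 4 EphrinB2 libraries alone 1 of the 15 rose, where 1.18% of all tested genes were called. Lyz2 had 1493 ± 143 FPKM in complete and 3418 ± 84.1 FPKM in osteogenic medium in vector cells (SD, n = 2). Adam8, Inpp5d and Mmp9 are also expressed by macrophages, and the part of such cells in the rises of these genes was not tested. Of the 4 tested endothelial markers 1, Cdh5, fell in both kinds of cell, while Tek went from 5.90 ± 0.224 to 11.0 ± 0.0451 FPKM in vector cells without passing. Of the pericyte and smooth muscle markers 0 of 4 changed in vector and 1 of 4, Mcam, fell in EphrinB2 cells, where Notch3, the most abundant, had 74.6 ± 33.3 and 35.3 ± 28.0 FPKM (SD, n = 2). The difference of Notch3 there was 0.11 without the libraries that stood apart, and those of Cdh5 and Mcam were -1.51 and -1.29.

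The shares of all tested genes called, 7.52% in vector and 11.8% in EphrinB2 cells, hold for the next counts too. Of 6 tested osteoclast markers 3 rose and 1 fell in vector cells, and 1 rose and 1 fell in EphrinB2 cells. Ctsk was the most abundant of them at 55.9 ± 1.52 and 39.9 ± 3.53 FPKM in vector cells, and Acp5 rose in both kinds of cell. Of 6 tested osteoblast markers 1 rose and 1 fell in vector cells and 2 rose and 1 fell in EphrinB2 cells, the fall being that of Col1a1, and Spp1 stood at 151 ± 18.7 and 258 ± 19.6 FPKM in vector cells (SD, n = 2). Of the fibroblast markers 2 rose and 4 fell in each kind of cell, and in EphrinB2 cells 4 rose and 6 fell without the 2 libraries that stood apart. Cardiomyocyte markers were under 1 FPKM apart from Tnnt2, which rose in both, and among Schwann cell and neuronal markers Tubb3 fell in both and Ngfr stayed near 1 FPKM.

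Likeness of pattern over the 8 libraries was measured by Pearson's r of log2(FPKM + 1), which is set mostly by the 2 media and, for Efnb2, by the EphrinB2 libraries. Within the family Ephb2 and Ephb3 were most alike (r = 0.962), then Ephb2 and Ephb6 (r = 0.903), and Efnb1 and Efnb2 were least alike (r = 0.197). Among 9412 candidate genes the closest to Ephb3 were Tnfrsf11b, the decoy receptor osteoprotegerin, and Col15a1, a basement membrane collagen (r = 0.999 for both). In vector cells Tnfrsf11b had 63.0 and 61.2 FPKM under complete and 7.41 and 7.19 FPKM under osteogenic conditions. Tspan9 was among the closest to Ephb2 (r = 0.998), and Btbd9 was among the closest to Ephb4 (r = 0.994).

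For Efnb2 the closest were Csdc2, Rasa4 and Carnmt1, at r = 0.963, 0.951 and 0.947. Their levels moved far less than those of Efnb2, Csdc2 between 2.41 and 4.01 FPKM and Rasa4 between 8.46 and 10.6 FPKM. Efnb1 was closest to Cpeb1 and Fermt2 (r = 0.973 and 0.971), and Ephb6 to Stac and Stau2 (r = 0.988 and 0.980). These values are descriptions over 8 libraries that share 4 groups, and they carry no test.

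**Figure D5:**
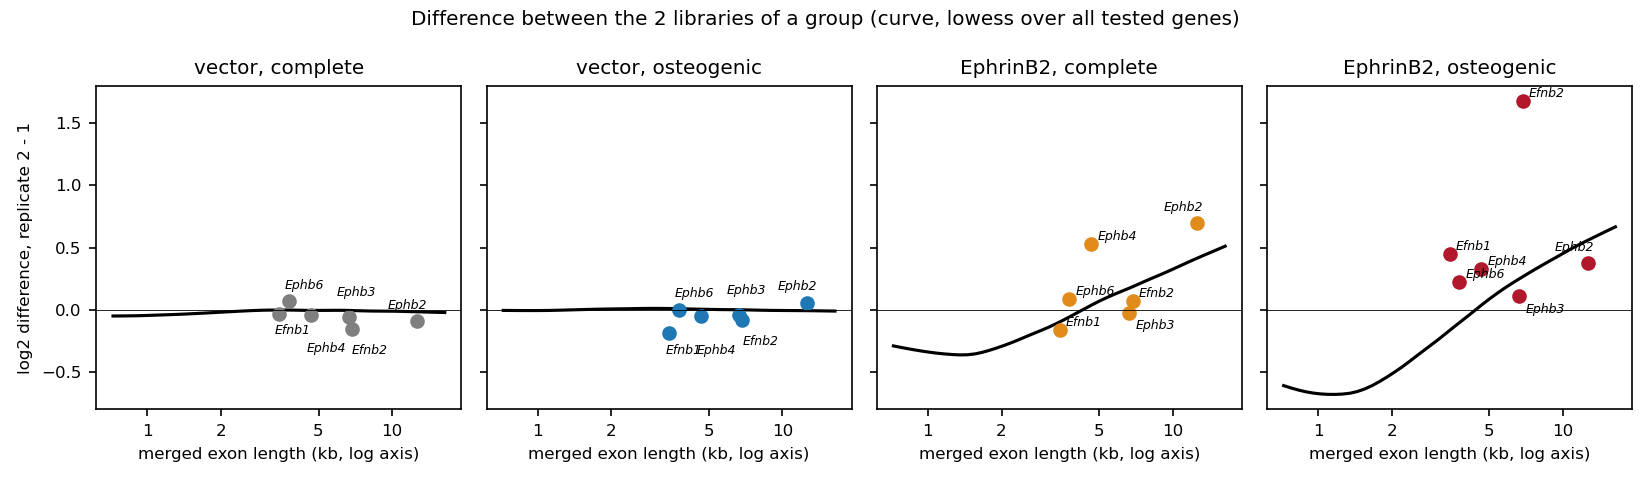
Log2 difference between replicate 2 and replicate 1 of each group against merged exon length (log axis) for the 6 tested genes, with a lowess curve over all tested genes. In vector groups all points lie within 0.19 of 0, and in the osteogenic EphrinB2 group Efnb2 lies at 1.68, far above the curve at 0.27.

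The spread between libraries of a group was uneven. In EphrinB2 cells the curve over all tested genes moved with gene length, but the 6 genes did not all follow it. In vector groups the 6 genes differed between the 2 libraries by -0.19 to 0.07 on the log2 scale. In EphrinB2 cells in complete medium Ephb2, with 12608 exon bases the longest of them, was 0.70 higher in replicate 2, where the curve over all tested genes at that length stands at 0.42, and Ephb4 was 0.53 higher, where the curve stands at 0.04. In osteogenic medium Efnb2 was 1.68 higher in replicate 2, against a curve value of 0.27 and an SD over all tested genes of 0.66. Over all tested genes the difference between these libraries moved with gene length, and the difference in Efnb2 was 1.41 above the curve. Which library of the pair holds the intended level of Efnb2 was not tested.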

How the data were processed

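RNA was sequenced from 8 libraries in 4 groups of 2. The deposited table gives FPKM for 54532 Ensembl genes. The tools of the authors, per the submitters' processing notes, were featureCounts (1.5.0-p3), HISAT2 (2.0.5), DESeq2 (1.16.1) and CASAVA, and the build was mm10. Symbols, coordinates and exon lengths came from GENCODE M21, which matched 54495 identifiers and missed 37.

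Reads were estimated from FPKM and exon length, which gave whole reads (within 0.02) for 98.1% to 98.3% of genes under 50 reads. FPKM are not counts, so log2(FPKM + 1) was fitted in limma 3.58.1 (R 4.3.3) with 4 group means over all 8 libraries, a mean-variance trend and two-sided tests. Genes at 1 FPKM or more in at least 2 libraries were tested (12994), with Benjamini-Hochberg adjustment and a threshold of 0.05. Folds on this scale understate changes of low genes. The fit was tested on simulated data.

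The members, lists and tests were chosen with earlier results of these data known. Text names the 8 genes, up to 4 called genes per partner list and comparison, the 2 most abundant markers per list and the 2 genes (3 for Efnb2) most alike in pattern, of which 2 are not reported here. Alternatives covered pseudocount, filter, scaling, variance model and libraries left out.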

Additional observations from a re-analysis of the deposited data

How the results depend on the processing

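The counts of genes called and the differences of the 6 tested genes were recomputed under 20 alternatives, of which scaling to TPM was chosen after seeing the FPKM sums. Ephb6 has no value with a filter of 5 FPKM, and the interactions have none with 4 libraries. No paired analysis was possible because the labels give no replicate numbers shared between groups. Ephb3 fell in both kinds of cell in all fits but 1. Of the values of single genes other than the overexpressed one between its groups, 493 kept their direction and side of the threshold, 12 came to pass it, 8 no longer passed it and 36 changed sign, none of these past the threshold. With 16493965 counted reads or more per library, depth limits Efnb3 and Ephb1 most. Ephb6 had 170 to 243 reads per library. The Poisson intervals of its vector replicates 1 overlap, at 2.52 to 3.32 FPKM in complete and 1.99 to 2.71 FPKM in osteogenic medium. Efnb2 had 185 and 168 reads in the osteogenic vector libraries. The cause of each change below was not tested beyond the libraries or genes the setting leaves out.

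The number of family members called in vector cells was 1 with no filter on low values and 1 under TPM, beside 2.47% and 5.89% of all genes. It was 4 with array weights per group and 4 with the 4 libraries compared alone, beside 42.5% and 40.6%, and it also moved with libraries left out. In EphrinB2 cells it was 0 with the 4 libraries alone and ran from 2 to 4 with 1 library left out, the 4 coming without osteogenic replicate 2, a fit that called 43.8% of all tested genes. Between EphrinB2 and vector cells the only member called in any fit was Efnb2. It was called only where an osteogenic EphrinB2 library was left out, which leaves 1 library in that group. In osteogenic medium many other tested genes were called as well without replicate 2. Without the 2 libraries that stood apart the difference of Efnb2 was 2.22 in complete and 3.05 in osteogenic medium. With 1 library left out it ran from 2.18 to 2.33 and from 1.37 to 3.05.

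The number of partners called in vector cells was 4 with no filter, 3 under TPM, 15 with centring by gene length, 37 with array weights and 39 both with 4 libraries and without the 2 that stood apart, and 1 to 15 with 1 library left out. In EphrinB2 cells it was 7 with no filter, 20 with length centring, 2 with array weights, 0 with 4 libraries and 29 without the 2, and 5 to 39 with 1 left out. Between EphrinB2 and vector cells in osteogenic medium it was 0 to 18 with 1 library left out, the 18 coming without EphrinB2 osteogenic replicate 2, where 21.1% of all tested genes were called.

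Sign changes without the 2 libraries that stood apart were those of Ephb4 in medium in EphrinB2 cells (0.060), of Ephb2 and Ephb4 between EphrinB2 and vector cells in complete medium (-0.13 and -0.15), of Efnb1 and Ephb4 in osteogenic medium (0.10 and 0.060), and of the Efnb2, Ephb2, Ephb4 and Ephb6 interactions (0.83, 0.077, 0.21 and 0.069). Under TPM they were Ephb3 and Ephb6 between EphrinB2 and vector cells in osteogenic medium (-0.22 and -0.14) and the Efnb1 and Efnb2 interactions (-0.18 and 0.056). TPM moved the median of all genes there by -0.24 and that of the interaction by -0.20. With length centring they were Ephb2 (0.080) and Ephb6 (-0.0027) between EphrinB2 and vector cells in osteogenic medium and the interactions of Efnb1 (-0.099), Efnb2 (0.12) and Ephb3 (0.027). The Efnb2 interaction was also 0.35 and 0.13 with pseudocounts of 0.1 and 0.5 and 0.084 with quantile normalization.

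With 1 library left out, the medium difference of Efnb1 in EphrinB2 cells ran from -0.40 to 0.045. Between EphrinB2 and vector cells in complete medium Ephb2 ran from -0.13 to 0.56 and Ephb4 from -0.15 to 0.38. In osteogenic medium Efnb1 ran from -0.35 to 0.10, Ephb3 from -0.048 to 0.065, Ephb4 from -0.27 to 0.060 and Ephb6 from -0.037 to 0.19. The interaction ran from -0.89 to 0.79 for Efnb2, from -0.20 to 0.24 for Efnb1, from -0.49 to 0.044 for Ephb4 and from -0.20 to 0.027 for Ephb6.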
